A study of Sus scrofa with 599 samples.

Results

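Genes that mark B cells and the plasma cells they become were followed through 4 adipose tissues (ATs) of pigs under 3 nutritional conditions. The set held 8 genes, MS4A1, CD79A, CD79B, PAX5, JCHAIN, POU2AF1, TNFRSF17 and CR2, chosen by name for their known cell types and not by a threshold on expression. Of these, 7 matched a row among the 21280 protein-coding genes (PCGs) of the expression tables by symbol, and CR2, a complement receptor, was not analysed here. All pigs were female Bama pigs aged 2 years when the study began. The normal condition (NC) pigs ate a normal diet, the weight-gain (WG) pigs ate a high-fat diet for 22 weeks, and the weight-loss (WL) pigs, drawn from pigs fed in that way, then had 12 weeks at 10% of the normal intake. WL pigs were thus 12 weeks older than WG pigs, a gap that the paper holds to be without significant effect. Restriction and age cannot be told apart between WG and WL. The ATs were 3 visceral depots, named RAD (retroperitoneal adipose), GOM (greater omentum) and MAD (mesenteric adipose), and 1 subcutaneous depot, ULB (upper layer of backfat). The RNA-seq libraries numbered 9, 12, 12 and 5 for NC GOM, MAD, RAD and ULB, 45, 36, 39 and 38 for WG, and 10 for each AT in WL. Each library was made from whole tissue, so a lower level can come from fewer B lineage cells or from less RNA per cell, and these cannot be told apart. Depots of one condition were taken from the same group of pigs, and libraries of different ATs may therefore share an animal.

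B cells recognise antigen through a membrane immunoglobulin that signals through the paired chains CD79A and CD79B, and MS4A1 encodes CD20, a surface protein of mature B cells. PAX5 is the transcription factor that holds B cell identity, and POU2AF1 is a coactivator that works with octamer-binding factors at B cell promoters. When a B cell becomes an antibody-secreting plasma cell, CD20 and PAX5 are shut down, while JCHAIN, which joins IgA and IgM into polymers, and TNFRSF17 (BCMA), a survival receptor for APRIL and BAFF, are switched on. Gut-associated lymphoid tissue, lymph nodes of the mesentery and the immune cell clusters of the omentum are known sites of both cell types close to visceral fat.

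The promoters of 4 members are shown, since the results turn on these genes: the receptor pair CD79A and CD79B, the B cell surface gene MS4A1 and the plasma cell gene JCHAIN. Each runs 5' to 3' on the gene's own strand from 250 bases before to 50 bases after the RefSeq start of Sscrofa11.1. Capitals mark an octamer (ATTTGCAT) or an EBF motif (TCCC and GGGA with any 2 bases between them), which were searched on both strands with a PU.1 motif (GAGGAAG).
CD79A (chr6:49999245-49999544, minus strand): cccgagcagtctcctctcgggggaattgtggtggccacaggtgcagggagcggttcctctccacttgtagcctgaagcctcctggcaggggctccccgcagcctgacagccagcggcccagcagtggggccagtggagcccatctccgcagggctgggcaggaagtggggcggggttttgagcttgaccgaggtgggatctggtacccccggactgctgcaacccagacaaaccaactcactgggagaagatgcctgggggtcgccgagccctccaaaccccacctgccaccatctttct
CD79B (chr12:15052716-15053015, plus strand): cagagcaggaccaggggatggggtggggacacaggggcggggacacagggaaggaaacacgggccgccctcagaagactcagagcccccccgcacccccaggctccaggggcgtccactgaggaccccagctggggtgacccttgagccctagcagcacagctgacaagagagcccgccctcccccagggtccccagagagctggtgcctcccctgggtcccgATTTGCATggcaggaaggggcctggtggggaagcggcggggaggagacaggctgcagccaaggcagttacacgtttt
MS4A1 (chr2:11229011-11229310, minus strand): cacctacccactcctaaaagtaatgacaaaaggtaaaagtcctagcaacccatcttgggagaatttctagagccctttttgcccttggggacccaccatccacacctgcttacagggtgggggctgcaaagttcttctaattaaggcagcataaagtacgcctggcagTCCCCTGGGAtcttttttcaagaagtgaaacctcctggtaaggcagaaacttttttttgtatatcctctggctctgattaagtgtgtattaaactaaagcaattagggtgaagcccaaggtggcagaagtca
JCHAIN (chr8:67448579-67448878, minus strand): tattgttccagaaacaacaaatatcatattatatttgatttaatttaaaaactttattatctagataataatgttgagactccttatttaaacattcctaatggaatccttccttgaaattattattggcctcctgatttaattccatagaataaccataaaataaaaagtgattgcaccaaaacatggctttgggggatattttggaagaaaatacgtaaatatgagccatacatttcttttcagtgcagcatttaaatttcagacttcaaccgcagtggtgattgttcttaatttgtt
The octamer of CD79B lay 27 to 20 bases before the start, and 1.47% of 20654 promoters of the same length held an octamer. The EBF motif of MS4A1 lay 82 to 73 bases before the start, and 1.03% of the promoters held one. The PU.1 letters, found in 12% of promoters, were in none of the 7 windows, which says only that these letters were not there. GC content was 65.3% for CD79A, 68% for CD79B, 74% for PAX5 and 69% for POU2AF1, against 45.3% for MS4A1, 44% for TNFRSF17 and 28.7% for JCHAIN. In Sscrofa11.1 the gene body of MS4A1 overlaps that of MS4A4A and the body of TNFRSF17 overlaps LOC100739121, so reads at these genes could be shared with a neighbour. CD79A lies 673 bases from ARHGEF1 and 3903 bases from RPS19.

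Estimated counts on PCGs ran from 3337098 to 22939420 per library (median 16791659 over all RNA-seq libraries). Sequencing quality split the libraries: 27 had a lower share of bases at Q30 in the study's library list, 17 of them in NC, 2 in WG and 8 in WL. In NC the share of TPM (transcript abundance scaled to transcript length and library depth) that fell on PCGs was 74.8% to 84.8% in the low-Q30 libraries and 91.9% to 96.8% in the others. Adipocyte markers were abundant in every group, with a median summed TPM of 7303 (NC GOM) or above for 6 genes, among them ADIPOQ and PLIN1. Before any comparison, 5 MAD libraries have to be set apart. Their summed TPM of 6 T cell markers (CD3D, CD3E, CD2, CD5, LCK and TRAT1, of 8 listed) was more than 3 times their own group's median, at 3.32 times in WG MAD replicate 1, 8.88 in WG MAD replicate 31, 5.67 in WL MAD replicate 1, 13.04 in WL MAD replicate 6 and 12.2 in WL MAD replicate 7. No other library passed that limit, and results that rest on these 5 are given with and without them.

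**Figure D1:**
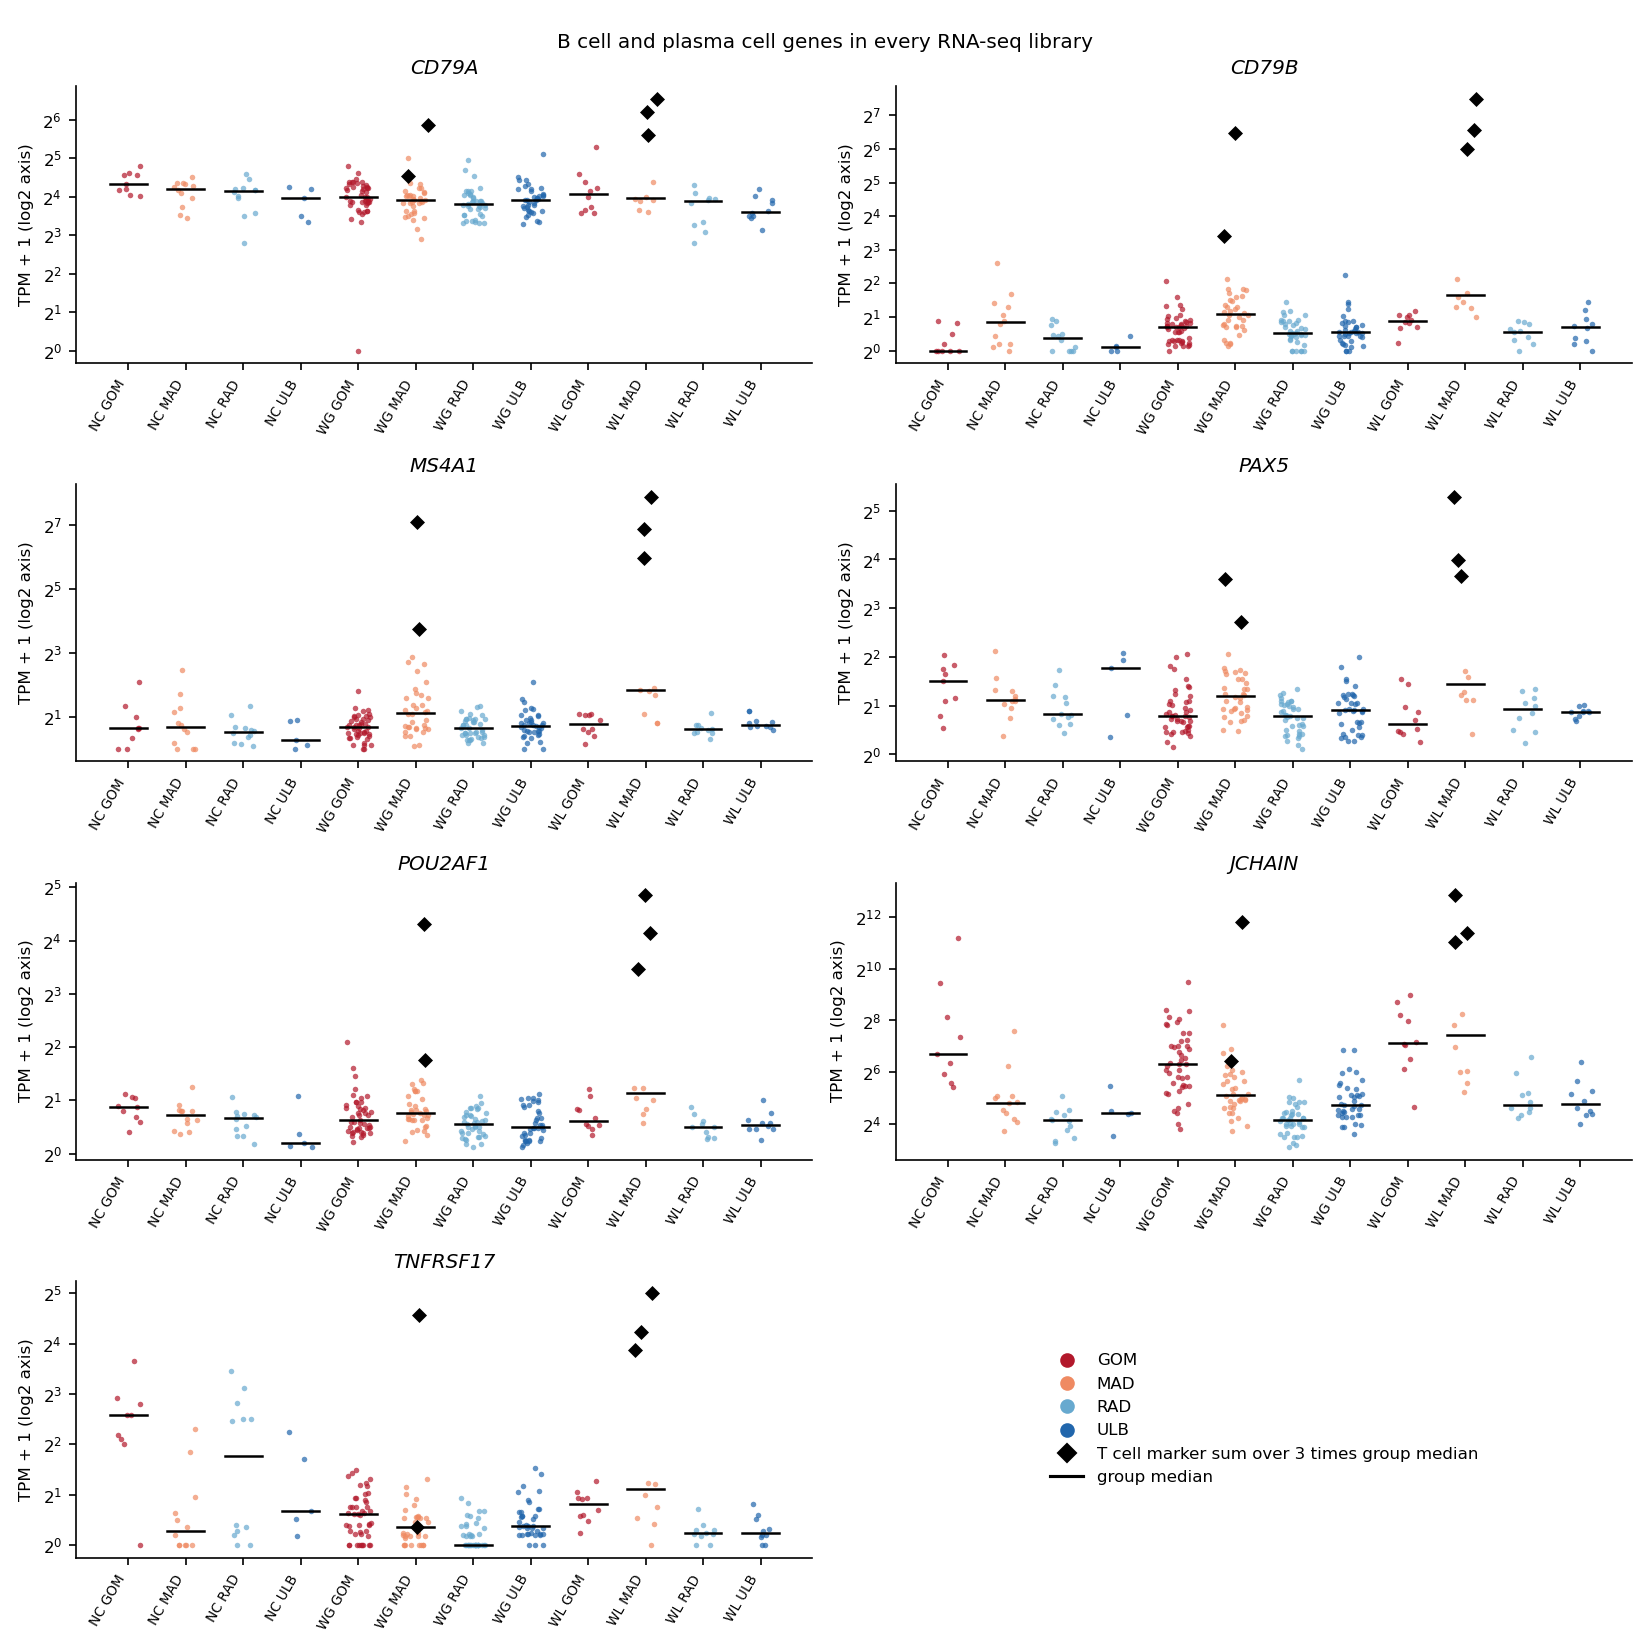
TPM + 1 on a log2 axis for the 7 genes in each RNA-seq library, by condition and AT. Lines are group medians, colours are ATs and black diamonds are the 5 MAD libraries with a high T cell marker sum. CD79A sat at a median of 11.2 to 19.3 TPM in every group, JCHAIN was highest in GOM and in WL MAD, and the other genes had group medians under 3 TPM, except TNFRSF17 in NC GOM at 5.01 TPM.

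The members differed first in how much RNA they contributed. CD79A was above 0.5 TPM in every library but 1, with a median of 14.42 TPM, and the exception was WG GOM replicate 35, the library with the lowest total count. Its group medians ran from 11.2 TPM in WL ULB to 19.3 TPM in NC GOM. JCHAIN was found in every library, from 7.61 to 7366 TPM with a median of 32.1 TPM. The other 5 genes were low: the median over libraries was 0.626 TPM for MS4A1, 0.597 for CD79B, 0.900 for PAX5, 0.555 for POU2AF1 and 0.317 for TNFRSF17, and CD79B was listed at 0 in 24 libraries and TNFRSF17 in 53. Ordered by mean log2(TPM + 1), no 2 neighbouring groups of any of the 7 genes differed by more than 1 pooled SD.

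The paired chains of the B cell receptor were not present in equal amounts. In the 231 libraries outside the 5, CD79A TPM exceeded CD79B TPM by a median of 23-fold (quartiles 13.7 and 40.5) where CD79B was above 0. In the 5 libraries the ratio was 2.3 in WG MAD 1, 0.656 in WG MAD 31, 0.752 in WL MAD 1, 0.518 in WL MAD 6 and 0.773 in WL MAD 7. TPM is scaled to transcript length, so the levels of the 2 genes can be set side by side. CD79A thus carried RNA at a level that did not follow CD79B in most libraries, and over the 231 libraries, which share ATs, conditions and animals, Pearson's r of their log2(TPM + 1) was 0.0106.

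**Figure D2:**
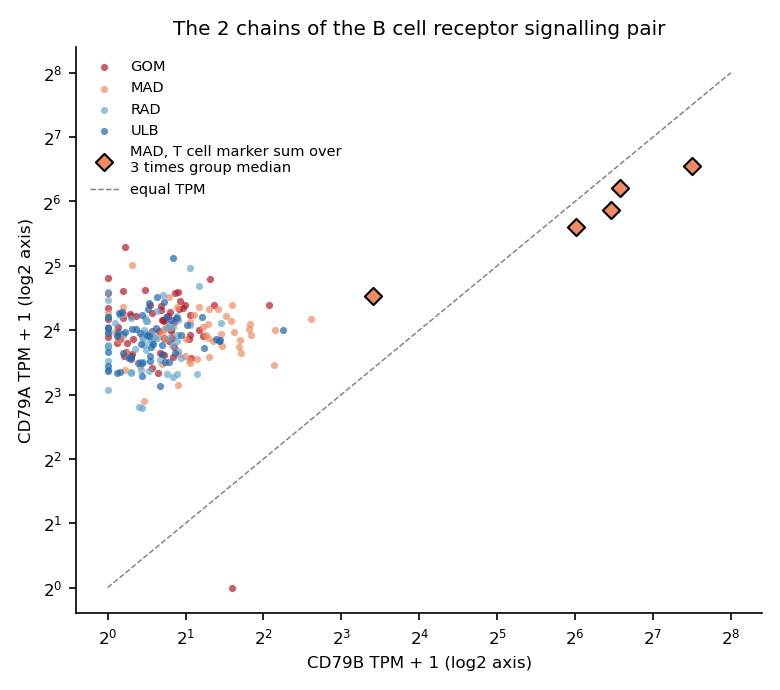
CD79A against CD79B, both as TPM + 1 on log2 axes, in all RNA-seq libraries coloured by AT. The dashed line marks equal TPM and diamonds are the 5 MAD libraries with a high T cell marker sum, whose CD79A to CD79B ratio was 0.518 to 2.3, against a median of 23 in the others.

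In the 5 libraries MS4A1 was 12.51 TPM in WG MAD 1, 136 in WG MAD 31, 61.9 in WL MAD 1, 235.97 in WL MAD 6 and 117 in WL MAD 7, while the highest of the other 231 libraries was 6.32 TPM in WG MAD 2. CD79B was 9.61, 87.1, 63.6, 180 and 94.4 TPM in the same order, and no other library passed 5.11 TPM. All 5 libraries therefore lay above every other library for both genes, as they did for PAX5, at 5.59, 11.2, 11.6, 37.997 and 14.9 TPM against at most 3.37 elsewhere.

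The plasma cell genes were less uniform. JCHAIN was 85.9 TPM in WG MAD 1, within the range of its group, and 3610, 2108, 2654 and 7366 TPM in WG MAD 31 and WL MAD 1, 6 and 7. TNFRSF17 was 0.282 TPM in WG MAD 1 and 22.8, 13.6, 17.8 and 30.9 TPM in the other 4. So WG MAD 1 lay above the 231 other libraries in CD79B, MS4A1 and PAX5 but in neither plasma cell gene. CD79A was 22.1 TPM there, below the 38.4 TPM of WL GOM 7, and 47.8 to 93.1 TPM in the other 4 libraries. POU2AF1, which both cell types use, was 2.37 TPM there, below the 3.29 TPM of WG GOM 35, and 10.1 to 27.9 TPM in the other 4.

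Markers of other cells moved with the members in these libraries. Of 6 genes listed for lymph node and follicle stroma, 3 had a row: CCL19, CCL21 and LTF, which is not a particular marker of such stroma. Their summed TPM was 3.23 to 7.13 times the group median. LTF was at 0.185 to 1.21 TPM in the 5 libraries, so the sum was in effect that of the chemokines CCL19 and CCL21. CCL21, a chemokine that draws lymphocytes into lymph nodes, was 633, 131, 388, 818 and 605 TPM in the order above. High values were not particular to the 5 libraries, as the highest CCL21 value, 1189 TPM, lay outside them. The summed TPM of the 3 genes reached 684 in NC MAD and 1348 in WG GOM, where MS4A1 was at most 2.495 TPM. CCR7, the receptor for CCL21, was 8.69 to 85.4 TPM. The adipocyte sum was 0.244 and 0.314 times the group median in WL MAD 6 and 7 and 0.778 to 0.903 times in the other 3, and the macrophage sum was 1.02 to 1.504 times. The part of any of these cells in the member values was not tested.

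**Figure D3:**
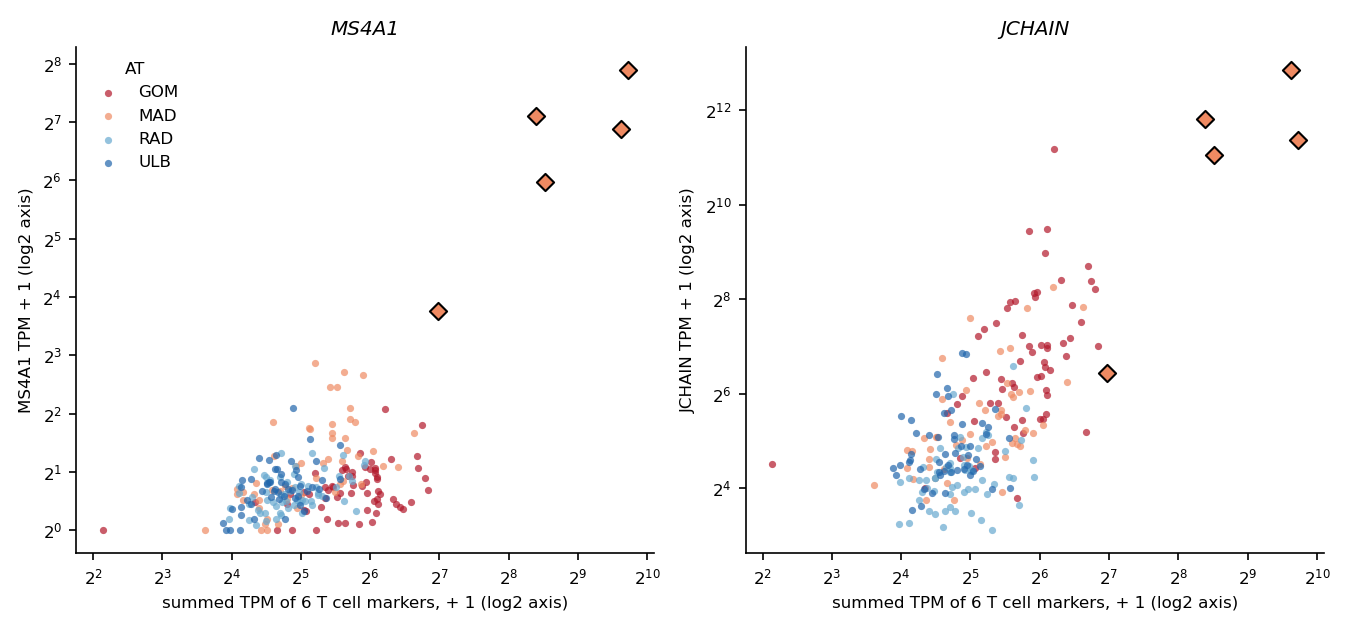
MS4A1 and JCHAIN (TPM + 1) against the summed TPM of 6 T cell markers + 1, all on log2 axes, in all RNA-seq libraries coloured by AT. The 5 diamonds are MAD libraries whose T cell marker sum was over 3 times their group's median. MS4A1 was 12.51 to 235.97 TPM in them and at most 6.32 elsewhere.

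The 5 libraries also set how closely the members tracked each other. Over 21 gene pairs and all libraries the median Pearson r of log2(TPM + 1) was 0.492 and the highest was 0.885, for MS4A1 with CD79B. Without the 5 libraries the median was 0.182, and Spearman's rho was 0.207 with them and 0.158 without. Of 15061 PCGs compared, those most like the mean of the members' z-scored levels over all libraries included CCR9, a chemokine receptor of gut-homing lymphocytes (r = 0.916), SPIB, a B lineage transcription factor (0.864), IL21R (0.857), CCR7 (0.85), BLK, a B cell kinase (0.838), NUGGC (0.813) and CNR2 (0.812), with 2 PCGs that had no symbol (0.843 and 0.811). Over the other 231 libraries, CCR9 stood at 0.574, and the most alike gene with a symbol was LEF1, a T and pre-B cell transcription factor (0.624). These libraries share animals and depth, and the correlations are given as descriptions.

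The first comparison asked how the ATs of one condition differed. Counting each of 7 genes over 6 pairs of ATs, and calling a difference at an adjusted p under 0.05 with a fold change above 1.5 (edgeR quasi-likelihood test, Benjamini-Hochberg adjustment), 4 of 42 member values were called in NC, where 13% of all genes tested were called. In WG the count was 17 of 42 (background 10.8%) and in WL 21 of 42 (background 10.1%). A gene was tested where it was above 0.5 TPM in at least 80% of the libraries of either group, which left 24, 24 and 33 of the 42 values. Without the 5 libraries, an alternative chosen after the data were seen, the count was 13 in WG (background 10.7%) and 13 in WL (background 8.07%).

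JCHAIN was the member that marked the omentum. In NC GOM the 9 libraries ran from 42.1 to 2311 TPM with a median of 103 TPM. NC MAD had 12.4, 27.1 and 192 TPM as its lowest, median and highest value, and NC RAD had 8.58, 16.7 and 33.04 TPM. The 5 NC ULB libraries had 42.7, 21.6, 20.6, 20.1 and 10.7 TPM. The NC GOM libraries all lay above every NC RAD library and overlapped the top of NC MAD and NC ULB.

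Of all genes tested, 17.7%, 19.5% and 25.4% were called for NC GOM against MAD, RAD and ULB. In log2 terms JCHAIN was higher in NC GOM by 3.33 ± 0.65 (SE) than in MAD, 4.55 ± 0.60 than in RAD and 4.11 ± 0.99 than in ULB (edgeR adjusted p = 0.00103, 4.57e-06 and 0.00539). Replicate 6, at 2311 TPM, carried part of the size: without it the differences were 2.33, 3.53 and 3.09, still called by edgeR (adjusted p = 0.00475, 3.59e-06 and 0.00568). In the other conditions GOM was again above RAD and ULB. WG GOM had a median of 79.1 TPM (12.8 to 717) against 16.95 TPM (7.61 to 50.5) in RAD and 25.4 TPM (11.4 to 115) in ULB, log2 differences of 2.65 ± 0.24 and 1.75 ± 0.25 (edgeR adjusted p = 2.77e-16 and 4.97e-09). WL GOM had a median of 139 TPM (23.9 to 499) against 25.6 TPM (17.6 to 95.01) in RAD and 26.2 TPM (14.8 to 83.9) in ULB, log2 differences of 2.48 ± 0.44 and 2.62 ± 0.43 (edgeR adjusted p = 0.000283 and 7.44e-05). Against MAD the direction of the fitted difference depended on the 5 libraries. With them JCHAIN was not called for GOM minus MAD, at -0.41 ± 0.40 in WG and -2.89 ± 0.94 in WL (edgeR adjusted p = 0.578 and 0.0676), and the WL median was 174.6 TPM in MAD against 139 TPM in GOM. Without them the difference was 1.35 ± 0.27 in WG, called, and 0.68 ± 0.54 in WL, not called (edgeR adjusted p = 6.6e-05 and 0.711). Other measures put WG GOM higher with all libraries kept: the medians were 79.1 TPM in GOM and 33.5 TPM in MAD. With the sample number as a block the WG difference was 0.93, and it was called (edgeR adjusted p = 0.00475). Within WG, JCHAIN was also lower in RAD than in ULB (log2 difference -0.90 ± 0.17, edgeR adjusted p = 8.07e-06).

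The B cell genes were not called higher in GOM than in another AT by edgeR, though not all were tested in each comparison. In GOM, MS4A1 had medians of 0.5675, 0.591 and 0.7004 TPM in NC, WG and WL, in the range of RAD (0.445, 0.559 and 0.532) and ULB (0.204, 0.653 and 0.684). It failed the filter on low values in every comparison of GOM with RAD, and CD79A, tested in each, was called by edgeR in 0 of the 9 comparisons of GOM with another AT, with an unadjusted p under 0.05 in 4. The ratio of summed JCHAIN to summed MS4A1 TPM was 493 in NC GOM, 188 in WG GOM and 283 in WL GOM, and 25.8 to 63.3 in the other 9 groups. Without the 5 libraries it was 28.4 in WG MAD and 68.4 in WL MAD. As a ratio of medians over all libraries, the gap was smaller. It was 181, 134 and 199 in NC, WG and WL GOM, and 28.3 (WG MAD) to 101 (NC ULB) in the other 9 groups. T cell markers also had their highest AT median in GOM in each condition (51.7, 53.1 and 68.0 TPM; next 21.8, 37.6 and 64.6 in MAD), and WT1, the single mesothelial marker of 5 with a row, had a median of 71.8 TPM in NC GOM against 0.627 to 8.80 in the other NC depots. Their part in the JCHAIN difference was not tested.

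TNFRSF17 followed JCHAIN in part. Its NC GOM libraries had 0, 3.04, 3.29, 3.55, 5.01, 5.02, 6.01, 6.56 and 11.6 TPM, against a median of 0.217 TPM in NC MAD (0 to 3.92), a log2 difference of 2.84 ± 0.80 (edgeR adjusted p = 0.0134). When the Q30 class entered the model, the difference was 1.95 and not called (edgeR adjusted p = 0.0746). The low-Q30 NC libraries carried this gene in every AT, with medians of 5.01, 3.26, 5.38 and 2.997 TPM in GOM, MAD, RAD and ULB, against 3.01, 0.0727, 0.182 and 0.429 TPM in the others, of which only 2 were GOM. In WL, TNFRSF17 was higher in GOM than in RAD and ULB by 1.59 ± 0.46 and 1.47 ± 0.44 (edgeR adjusted p = 0.0168 and 0.0152), at medians of 0.754, 0.177 and 0.187 TPM. In these comparisons, and in NC GOM minus MAD, TNFRSF17 passed the filter only through GOM.

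In WG and WL, mesenteric fat carried the B cell genes. In NC, edgeR called 0 of 3 members tested for MAD minus RAD and 0 of 3 for MAD minus ULB. The counts at an unadjusted p under 0.05 were 1 (JCHAIN) and 0. MS4A1 and CD79B failed the filter, each above 0.5 TPM in 58.33% of NC MAD libraries. NC medians in MAD, GOM, RAD and ULB were 0.603, 0.5675, 0.445 and 0.204 TPM for MS4A1. For PAX5 they were 1.17, 1.84, 0.771 and 2.41 TPM. In WG, MS4A1 had a median of 1.18 TPM in MAD (0.0730 to 136) and the highest value in the other ATs was 3.29 TPM, in ULB. Its log2 difference was 3.22 ± 0.46 for MAD minus RAD and 2.92 ± 0.47 for MAD minus ULB (edgeR adjusted p = 4.56e-08 and 2.50e-07), and -3.26 ± 0.43 for GOM minus MAD (2.40e-09). CD79B differed by 2.91 ± 0.45 and 2.73 ± 0.45 from RAD and ULB, PAX5 by 1.26 ± 0.22 and 0.85 ± 0.22, and POU2AF1 by 1.46 ± 0.28 and 1.41 ± 0.29, each called by edgeR. The background was 5.4% of all genes for MAD minus RAD, 14.4% for MAD minus ULB and 6.27% for GOM minus MAD. CD79A was not called (0.14 ± 0.12 against RAD).

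Without WG MAD 1 and 31 these differences were smaller, and several were still called, where 5.16%, 14.1% and 6.74% of all genes were called in the same order. Against RAD they were 1.36 for MS4A1, 1.17 for CD79B, 0.88 for PAX5 and 1.302 for JCHAIN (edgeR adjusted p = 3.81e-05, 0.000638, 7.86e-05 and 6.27e-08). For GOM minus MAD they were -1.38 for MS4A1, -0.95 for CD79B and -0.62 for PAX5 (edgeR adjusted p = 1.64e-05, 0.00321 and 0.0120). Against ULB, MS4A1 and CD79B stood at 1.05 and 0.97 and were called, while PAX5 at 0.46 fell below the fold limit and JCHAIN at 0.40 was not called (edgeR adjusted p = 0.0338 and 0.117), the latter after 2.16 ± 0.41 with them. POU2AF1 no longer passed the filter on low values in any of the 3 comparisons. JCHAIN in WG MAD minus ULB also lost its call with the sample number as a block (0.54, edgeR adjusted p = 0.0817). MS4A1 and CD79B, and PAX5 against RAD and GOM, were thus still called without those 2 libraries. In WG these genes passed the filter only through MAD. Their testing already rested on higher MAD levels, so the calls are not separate support for such levels. MS4A1 was above 0.5 TPM in 83.33% of all WG MAD libraries, against 55.56%, 53.85% and 63.16% in GOM, RAD and ULB.

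In WL the same depot showed larger values with wider errors, where 7.31% of all genes were called for MAD minus RAD, 14.4% for MAD minus ULB and 5.97% for GOM minus MAD. MAD minus RAD was 6.40 ± 1.19 for MS4A1, 6.34 ± 1.15 for CD79B, 5.36 ± 1.01 for JCHAIN, 3.94 ± 0.78 for POU2AF1, 3.20 ± 0.75 for PAX5 and 1.46 ± 0.42 for CD79A on the log2 scale (edgeR adjusted p = 0.00229, 0.00196, 0.00256, 0.00366, 0.0103 and 0.0306). With the sample number as a block PAX5 stood at 1.90 (edgeR adjusted p = 0.0508). MS4A1, CD79B, PAX5 and POU2AF1 passed the filter in MAD minus RAD only through MAD. So did CD79B and POU2AF1 in MAD minus ULB, and MS4A1, PAX5 and POU2AF1 in GOM minus MAD. MAD minus ULB was called for the same 6 genes, from 1.49 ± 0.41 for CD79A to 5.98 ± 1.14 for CD79B. GOM minus MAD was -5.97 ± 1.17 for MS4A1 and -3.30 ± 0.87 for TNFRSF17 (edgeR adjusted p = 0.00193 and 0.0220). In the blocked fit CD79A in MAD minus ULB and the 5 genes called in GOM minus MAD were not called.

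Without WL MAD 1, 6 and 7 the MAD minus RAD differences were 1.97 for CD79B, 1.65 for MS4A1, 1.09 for POU2AF1 and 1.79 for JCHAIN (edgeR adjusted p = 0.00841, 0.00525, 0.0407 and 0.0326). PAX5 (0.62) and CD79A (0.20) were no longer called, nor were they against ULB (0.72 and 0.24), and the background was 2.11%. Among the 7 other WL MAD libraries MS4A1 ran from 0.734 to 2.77 TPM with a median of 2.18, where RAD had 0.234 to 1.18 TPM with a median of 0.532, so the ranges overlapped. For GOM minus MAD, CD79B alone was still called (-1.16, edgeR adjusted p = 0.0289), where 4.65% of all genes were called.

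The second comparison asked what weight gain changed within an AT. From NC to WG, 5 of 28 member values were called (background 14.3%), with 17 passing the filter. In GOM, where 26.7% of all genes were called, JCHAIN was lower in WG (log2 difference -1.96 ± 0.44, edgeR adjusted p = 0.000508), as were TNFRSF17 (-3.32 ± 0.39, 6.13e-10), PAX5 (-1.18 ± 0.30, 0.00202) and CD79A (-0.66 ± 0.19, 0.00499). PAX5 was lower in RAD as well (-0.71 ± 0.26, 0.0263). NC and WG ranges overlapped for each: PAX5 in GOM was 0.457 to 3.09 TPM in NC and 0.107 to 3.17 in WG.

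Of these calls, JCHAIN depended on NC GOM replicate 6, without which the difference was -0.91 (edgeR adjusted p = 0.112). In the model with the Q30 class, PAX5 in GOM and RAD and CD79A were not called (-0.82, -0.17 and -0.67, edgeR adjusted p = 0.238, 0.818 and 0.182), and TNFRSF17 and JCHAIN were. Low-Q30 libraries were 7 of 9 in NC GOM and 1 of 45 in WG GOM, so this model could hardly part condition from Q30 class. NC GOM replicate 6, on which the JCHAIN call depended, was among the few NC GOM libraries outside the low-Q30 class. In MAD 0 of 6 members tested were called by edgeR or DESeq2, with an unadjusted p under 0.05 for 3, and MS4A1 stood at 2.44 ± 0.90 (edgeR adjusted p = 0.0504). In ULB, with 5 NC libraries, 0 of 3 tested were called by either tool, with an unadjusted p under 0.05 for 1.

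The third comparison asked what the restriction changed. From WG to WL, 7 of 28 member values were called (background 9.32%), 6 of them in MAD, and without the 5 libraries 2 were. In MAD, 17.4% of all genes were called. MAD rose by 3.20 ± 0.73 in JCHAIN, 3.18 ± 0.72 in CD79B, 2.90 ± 0.78 in MS4A1, 2.22 ± 0.52 in POU2AF1, 2.11 ± 0.42 in PAX5 and 1.05 ± 0.26 in CD79A on the log2 scale (edgeR adjusted p = 0.000986, 0.000827, 0.00440, 0.00129, 0.000219 and 0.00215). Without the 5 libraries JCHAIN was the one still called, at 1.40 (edgeR adjusted p = 0.0121), where 5.91% of all genes were called. The others were 0.59 for CD79B, 0.22 for POU2AF1, 0.06 for MS4A1, -0.05 for PAX5 and -0.04 for CD79A.

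The values show the same. The 10 WL MAD libraries had JCHAIN at 36.4, 46.7, 64.0, 65.5, 123, 226, 307, 2108, 2654 and 7366 TPM, where the 34 WG MAD libraries outside the 2 ran from 12.4 to 223 TPM with a median of 32.4. MS4A1 in the 7 other WL MAD libraries had a median of 2.18 TPM and a highest value of 2.77, inside the WG range of 0.0730 to 6.32 TPM. The rise of the B cell genes from WG to WL in mesenteric fat was thus that of 3 libraries of 10, and a smaller difference in JCHAIN was found beside them. In RAD, JCHAIN rose from a median of 16.95 to 25.6 TPM (log2 difference 0.90 ± 0.22, edgeR adjusted p = 0.00455), and this was 0.65 in the model with the Q30 class (edgeR adjusted p = 0.0765). Of 4 members tested in GOM and 4 in ULB, 0 were called by edgeR or DESeq2, and at an unadjusted p under 0.05 the counts were 0 and 1. The change between conditions differed between ATs in 22 of 84 member values (26.2%) by an interaction term over 12 contrasts (edgeR adjusted p under 0.05, background 2.84%), and in 5 without the 5 libraries. Of those 5 values 3 were among the 22, and no contrast from WG to WL kept its call.

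**Figure D4:**
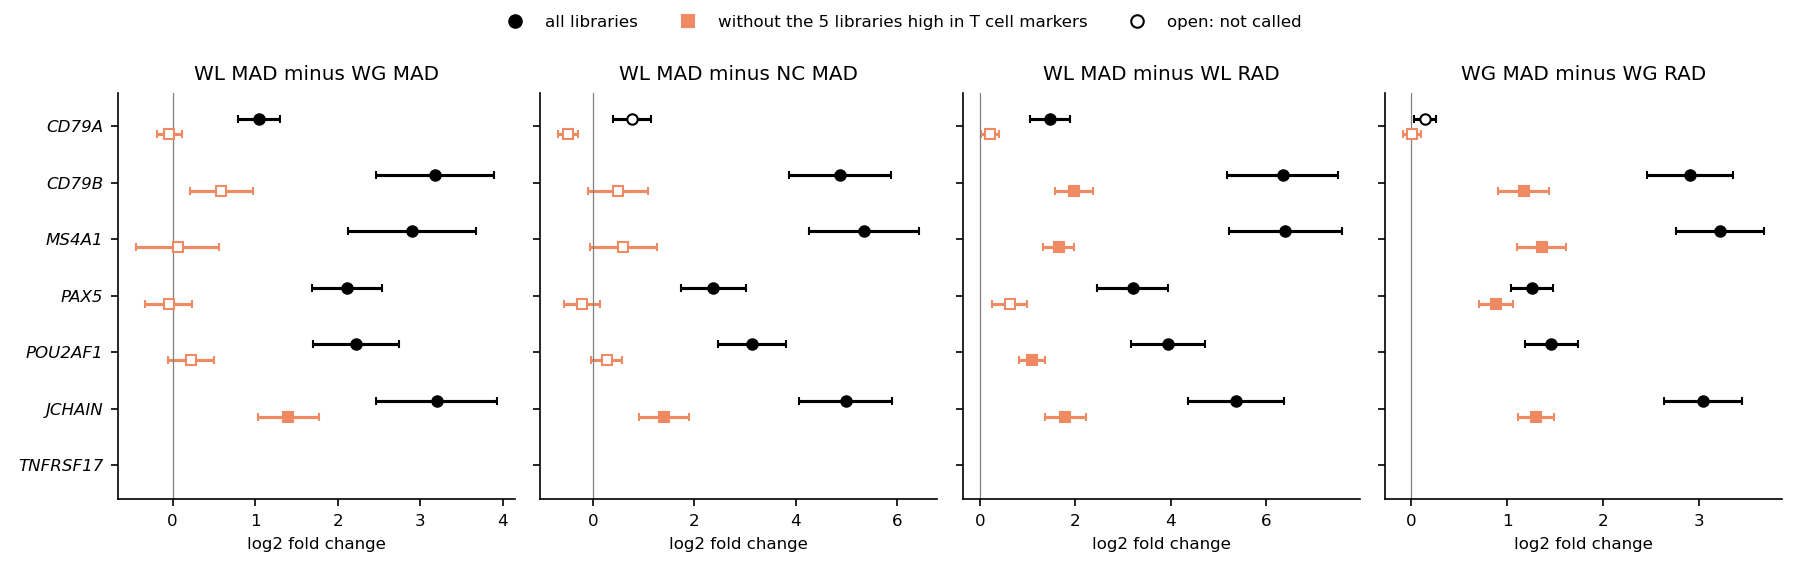
Log2 fold change ± SE from edgeR for the 7 genes in 4 comparisons of MAD, with all libraries (black) and without the 5 libraries with a high T cell marker sum (orange). Filled symbols were called, open ones were not, and TNFRSF17 was not tested in these comparisons. In WL MAD minus WG MAD, JCHAIN alone was called in both settings.

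From NC to WL, 11 of 28 member values were called (background 27.8%), with 19 passing the filter. MAD was higher in WL by 5.35 ± 1.09 in MS4A1, 4.99 ± 0.91 in JCHAIN, 4.88 ± 1.01 in CD79B, 3.13 ± 0.67 in POU2AF1 and 2.38 ± 0.64 in PAX5, each called by edgeR, where 33.1% of all genes were called. MS4A1, CD79B and POU2AF1 passed the filter there only through WL MAD. Without the 3 WL libraries only JCHAIN was called in MAD, at 1.41 (edgeR adjusted p = 0.0342). In GOM, TNFRSF17 and PAX5 were lower in WL (-2.95 ± 0.51 and -1.41 ± 0.41) and CD79B was higher (1.45 ± 0.60, edgeR adjusted p = 4.96e-05, 0.00610 and 0.0454). In RAD, JCHAIN was higher and CD79A lower (0.83 ± 0.27 and -0.70 ± 0.22, edgeR adjusted p = 0.0161 and 0.0145), and in ULB, PAX5 was lower (-1.42 ± 0.40, 0.0215). Modelled with the Q30 class, CD79B in GOM, CD79A in RAD and PAX5 in ULB lost their calls (edgeR adjusted p = 0.0822, 0.0866 and 0.0565).

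Other genes of the B lineage were read from lists of 53 genes in 6 groups, of which 48 had a row. In WL MAD minus WG MAD, 25 of the 43 tested were higher and 1 lower with all libraries, where 8.26% of all genes were higher. With the 5 left out 2 were higher and 1 lower, where 2.67% of all genes were higher. By group, those higher numbered 8 of 14 for B cell receptor signalling, 5 of 8 for B lineage transcription factors, 4 of 8 for plasma cell genes, 1 of 4 for the BAFF and APRIL axis, 3 of 4 for follicle chemokines and 4 of 5 for germinal centre genes. IRF8 and IKZF1, transcription factors of lymphoid and other blood cells, stood at 1.42 and 1.24, CD38, a surface enzyme of plasma cells and other immune cells, at 1.95, and TNFRSF13C, the BAFF receptor, at 1.85. CCR7 stood at 3.23 and CCL19 at 1.303, and GCSAM and MYBL1, 2 germinal centre genes, at 2.20 and 1.49. XBP1, the transcription factor of secretory cells, stood at 0.35 and was not called (edgeR adjusted p = 0.0696).

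The genes higher without the 5 libraries were CD38 (0.91) and MZB1 (1.52), an endoplasmic reticulum protein of antibody secretion named here after its value was seen (edgeR adjusted p = 0.00430 and 0.00164). BCL6, the repressor of germinal centre B cells, which other cells of fat also express, was lower in both settings (-1.08 and -1.17). In NC GOM minus NC RAD, 17 of 40 list genes tested were higher by edgeR, where 9.59% of all genes were higher, and 0 were lower, also 0 at an unadjusted p under 0.05. Other markers moved with this list: the median summed TPM in NC GOM and NC RAD was 870.6 and 458.4 for 7 macrophage genes, 51.65 and 19.22 for the T cell genes, and 7303 and 17570 for the adipocyte genes. Several list genes, such as SYK and TNFSF13B, are also expressed by myeloid cells, whose part in the count was not tested. Among them were CCL21 (2.83), BANK1 (1.17), a B cell signalling adaptor, CD38 (1.17), and TNFSF13B and TNFSF13, the BAFF and APRIL ligands (1.23 and 0.75). XBP1 and TXNDC5, general secretory genes, stood at -0.16 and 0.00324. In WL GOM minus WL RAD 3 of 39 list genes were higher (background 8.13%), and in WG GOM minus WG RAD 2 of 38 (7.08%).

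Chromatin compartments were read from the A-B index of each Hi-C sample in 20 kb bins, where a value above 0 marks the open A side. The bin at each gene's start was read. By the paper's protocol, Hi-C nuclei came from the adipocyte layer of the fixed tissue after centrifugation, whereas RNA came from whole tissue. The index and the RNA of these genes therefore need not come from the same cells. Mean index over samples was 4.88 for CD79A, above 96.3% of 113298 bins, 4.46 for CD79B, 2.57 for JCHAIN, 1.70 for PAX5, 1.65 for TNFRSF17, -0.24 for POU2AF1 and -2.54 for MS4A1, above 26.9% of bins. CD79A, near 14 TPM in most libraries, had the highest index, and the MS4A1 bin was below 0 in every group, with 0 of its samples above. The CD79B bin was on the A side in every sample although the gene itself was near the limit of detection.

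**Figure D5:**
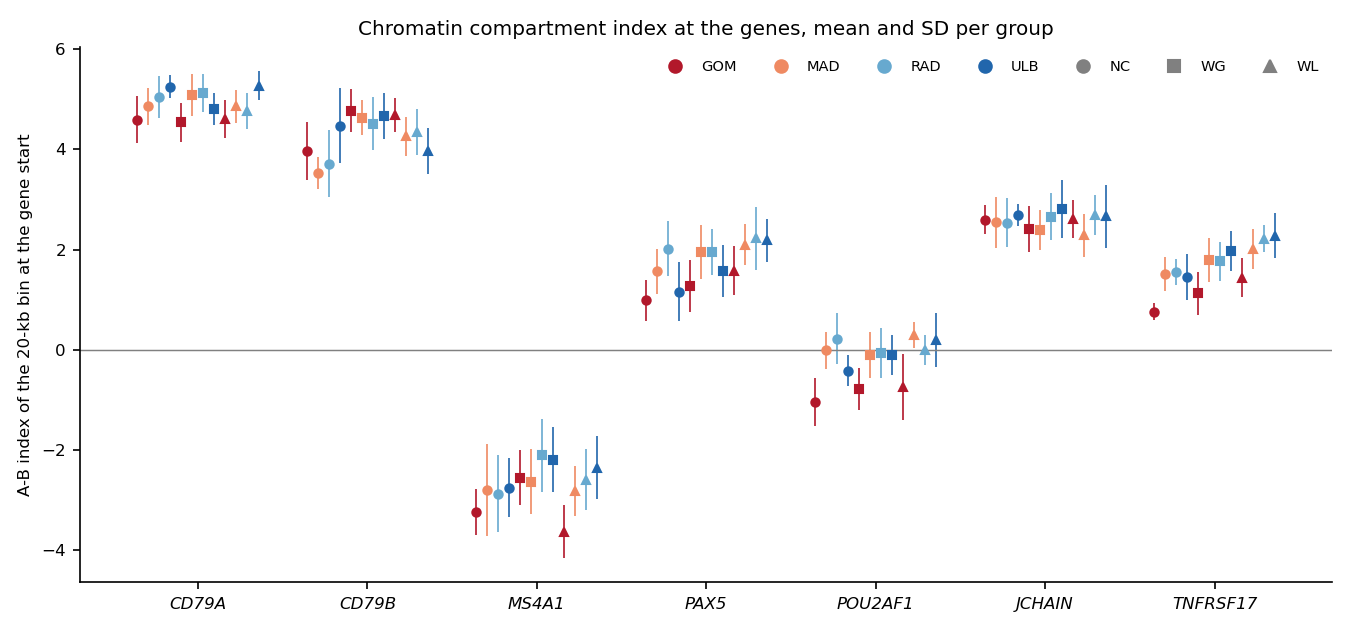
Mean A-B index ± SD of the 20 kb bin at each gene's start, by AT (colour) and condition (symbol). MS4A1 lay below 0 in every group and CD79A and CD79B lay at 3.53 or above, while POU2AF1 crossed 0 between GOM and the other ATs.

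Between ATs of one condition, 15 of 126 member values (7 bins over 18 comparisons, 11.9%) differed at an adjusted p under 0.05 and an index difference above 0.75 (limma), near the 11.4% called among all bins. The omentum was lower in 13 of them, but the share of all called bins lower in GOM was not computed, so this count is not a result about the members. POU2AF1 was lower in GOM than in RAD by -1.26 ± 0.21 in NC and than in MAD by -1.04 ± 0.22 in WL (limma adjusted p = 7.93e-05 and 0.00140). Its bin had an index of -1.04 ± 0.48 (SD) in NC GOM, 0.225 ± 0.503 in NC RAD and 0.300 ± 0.262 in WL MAD. TNFRSF17 was lower in GOM than in RAD in NC and WL (-0.79 ± 0.12 and -0.78 ± 0.17) and than in ULB in WG and WL (-0.84 ± 0.09 and -0.85 ± 0.20). MS4A1 was lower in WL GOM than in each other AT, by -0.80 to -1.28. JCHAIN, whose RNA was higher in GOM than in RAD and ULB, had no A-B index call in any comparison, and its mean index was 2.29 to 2.81 in the 12 groups.

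Between conditions 7 of 84 member values (7 bins over 12 comparisons, 8.33%) differed by limma, near the 7.16% called among all bins. The CD79B bin was higher in WG than in NC in GOM, MAD and RAD, by 0.81 ± 0.17, 1.10 ± 0.12 and 0.80 ± 0.18 (limma adjusted p = 0.00102, 2.69e-08 and 0.00113). CD79B RNA was not tested in GOM and RAD for that step, and in MAD it stood at 1.68 ± 0.79 (edgeR adjusted p = 0.129). MS4A1 was lower in WL than in WG GOM (-1.07 ± 0.19, limma adjusted p = 0.000196) and higher in WG than in NC RAD (0.76 ± 0.24, 0.0163). PAX5 and TNFRSF17 were higher in WL than in NC ULB (1.03 ± 0.26 and 0.83 ± 0.25).

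Enhancer regions came from H3K27ac ChIP-seq, as 18 tables of ranked, stitched regions, and since a table pools samples of a group these are counts with no test. A region lay within 10 kb of the CD79A gene in 18 tables, of PAX5 in 17, of CD79B in 16, of MS4A1 and of TNFRSF17 in 15 each, of JCHAIN in 4 and of POU2AF1 in 2. The NC GOM region at CD79B ran from chr12:14781800-15059199 and was ranked among the super-enhancers, and it covered many genes beside CD79B. CD79B had such a region in 2 tables, TNFRSF17 in 1 and the other members in 0. The JCHAIN regions lay in GOM (1), MAD (2) and RAD (1), and all 18 tables had one within 50 kb. A table held 18143 to 25819 regions, and the share of all genes with a region within 10 kb was not computed. These counts are therefore not a result about the members. A region near a gene may also belong to a neighbour, as CD79A lies 673 bases from ARHGEF1.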

How the data were processed

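RNA-seq was made from rRNA-depleted, stranded libraries of adipose tissue. The authors quantified transcripts with kallisto (0.43.0) on Sscrofa11.1 genes and deposited gene tables of estimated counts and of TPM, from which the labelled libraries were used, and 9 further columns in each table that matched no sample used here were left out. Per the labels, H3K27ac ChIP-seq and Hi-C came from the same tissues. The authors deposited a compartment score per sample, the A-B index, in 20 kb bins, and ROSE tables of stitched enhancer regions with an H3K27ac signal, made from reads mapped with BWA (0.7.15) and SAMtools (1.3.1).

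Estimated counts were rounded and tested for each pair of groups with edgeR (4.0.16) quasi-likelihood fits on all detected PCGs, where detection meant more than 0.5 TPM in 80% or more of one group's libraries, with Benjamini-Hochberg adjustment, and called at an adjusted p under 0.05 and a fold change above 1.5. Differences between ATs in a diet step came from interaction terms in 1 fit over 15068 genes. The A-B index was compared with limma (3.58.1) over 113298 bins. Alternatives were other scaling, DESeq2 (1.42.0), edgeR's exact test, limma on log2(TPM + 1), no filter, a term for the Q30 class, a sample number block and leaving out libraries. The members and all lists were chosen with earlier results of these data known. Genes were named by a fixed rule: every member, and up to 4 genes a list by mean TPM. Nothing in the labels says which libraries share a pig, so p-values measure the spread between these libraries, and depth limits the low genes: intervals for counting error were not computed from estimated counts.

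In data simulated from the WL MAD and WG MAD libraries, 200 genes among 13918 were changed, and 99% of changes of 2 and 81% of changes of 1 on the log2 scale were called. Among the RNA comparisons simulated, the share for changes of 1 was lowest in NC GOM minus NC ULB (39%). It was highest in WG GOM minus WG ULB (95%). The changed genes were drawn from all that passed the filter, so these shares are not those of low genes or of values set by a few libraries.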

Additional observations from a re-analysis of the deposited data

Results flagged for a closer look

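In groups of 4 to 10 libraries, the highest or lowest TPM was compared with its neighbour by Dixon's criterion over 42 sets of gene and group, and 11 values stood apart. The criterion flags about 1 in 20 sets by chance where values are normally distributed. TPM was used here without a log and its distribution was not tested, so the count is not set against that rate. All were the highest of their group. In WL MAD, replicate 6 stood apart for CD79B (179.9 TPM), MS4A1 (235.97 TPM) and PAX5 (37.997 TPM) and replicate 7 for JCHAIN (7366 TPM). In NC GOM, replicate 6 stood apart for JCHAIN (2311 TPM, next 691.9) and for MS4A1 (3.224 TPM, next 1.505). The others were CD79A in WL GOM replicate 7 (38.37 TPM), JCHAIN in WL ULB replicate 8 (83.94 TPM, a low-Q30 library), MS4A1 in WL RAD replicate 1 (1.182 TPM), TNFRSF17 in WL RAD replicate 5 (0.6473 TPM) and POU2AF1 in NC ULB replicate 12 (1.111 TPM).

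The change between 2 conditions differed between ATs in 22 member values, by an interaction term of the edgeR fit at an adjusted p under 0.05, where 2.84% of all gene values were called. From NC to WG, the GOM change minus the MAD change was -3.055 for MS4A1, -1.365 for PAX5, -3.707 for JCHAIN and -3.679 for TNFRSF17, and the MAD change minus the RAD change was 4.725 for TNFRSF17. From WG to WL, GOM minus MAD was -2.811 for CD79B, -2.684 for MS4A1, -2.362 for PAX5, -2.305 for POU2AF1 and -2.461 for JCHAIN. MAD minus RAD was 1.306 for CD79A, 3.409 for CD79B, 3.137 for MS4A1, 1.924 for PAX5 and 2.444 for POU2AF1. MAD minus ULB was 1.473 for CD79A, 3.216 for CD79B, 2.972 for MS4A1, 2.424 for PAX5, 2.365 for POU2AF1, 3.318 for JCHAIN and 3.616 for TNFRSF17. These contrasts share groups, and without the 5 libraries with a high T cell marker sum 5 member values were called. Of the 22 values above, 3 were still called, 17 were weaker and 2 changed sign, and no contrast from WG to WL kept its call. The 3 still called were JCHAIN (-1.95) and TNFRSF17 (-2.14) for NC to WG in GOM minus MAD, and TNFRSF17 (3.19) in MAD minus RAD. With the Q30 class modelled, 3 of the 22 values were weaker. Low-Q30 libraries were 7 of 9 in NC GOM and 6 of 12 in NC RAD, but 2 of 12 in NC MAD. Median TNFRSF17 in low-Q30 and other libraries was 3.26 and 0.0727 TPM in NC MAD, and 5.38 and 0.182 TPM in NC RAD. The TNFRSF17 contrasts thus compare NC groups that differ in their share of low-Q30 libraries.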

How the results depend on the processing

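Counts of member calls moved under these settings. Without the 5 libraries high in T cell markers, chosen after the data were seen, the counts were 13 between ATs in WL (from 21), 2 from WG to WL (from 7), 7 from NC to WL (from 11) and 5 interactions (from 22). Of those 5 interactions 3 were among the 22. With limma on log2(TPM + 1) they were 11 between ATs in WG, 6 in WL, 1 from NC to WG and 7 from NC to WL. From NC to WG the count was 8 with no filter on low genes and 2 with a term for the Q30 set. For the A-B index it was 34 between ATs and 16 between diets at a difference above 0.5, and 3 between diets after quantile normalization. The cause was not tested. Without the 5 libraries these values changed sign: TNFRSF17 in WL GOM minus WL MAD (0.01423), CD79A and PAX5 in WL MAD minus WG MAD (-0.03886 and -0.04874), PAX5 in WL MAD minus NC MAD (-0.218), and, among interactions from WG to WL, MS4A1 in GOM minus MAD (0.1394) and PAX5 in MAD minus RAD (-0.2505).

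Leaving out each NC ULB replicate in turn gave 4 to 5 calls between ATs in NC, 5 to 6 from NC to WG, 10 to 11 from NC to WL, 22 interactions, and 13 to 16 and 5 to 7 A-B index calls between ATs and between diets. Leaving out NC GOM replicate 6, chosen after the data were seen, gave 4 calls between ATs in NC, 4 from NC to WG and 11 from NC to WL.

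The sample numbers that ATs share are not said to mark one pig. Of 311 pairs with the same number, 285 correlated above 0.1 in their deviations, and in 4 of 18 pairs of ATs every pair did (NC GOM and ULB, WG MAD and ULB, WG RAD and ULB, WL MAD and RAD), while in 183 of the 311 the best match was the library of the same number. With the number as a replicate block the counts between ATs were 3 in NC (from 4), 16 in WG (from 17), 14 in WL (from 21) and 14 for the A-B index (from 15). In those 4 pairs of ATs the block ended the calls of JCHAIN in WG MAD minus WG ULB and PAX5 in WL MAD minus WL RAD and no other. Elsewhere it ended 5 calls in WL GOM minus WL MAD and those of CD79A in WL MAD minus WL ULB, TNFRSF17 in NC GOM minus NC MAD and POU2AF1 in WG GOM minus WG MAD, and it added JCHAIN in WG GOM minus WG MAD (0.93). DESeq2, RLE scaling and edgeR's exact test ended 3, 0 and 0 of 65 member calls.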
